A study of Mus musculus with 8 samples.

Results

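Hearts of mice that carry the GATA4 substitution S105A were compared with wild-type (WT) hearts after PE, an adrenergic stimulus. The comparison took the 4 PE arrays of an 8-array study, S105A arrays 7 and 8 minus WT arrays 3 and 4, over 19938 genes. All mice were 9 weeks old on a C57Bl6 background, and the labels name no substrain. The mutants were homozygous for the Gata4 allele, and the labels do not say how the allele was made or whether WT mice were littermates. PE was delivered under the skin at a daily dose of 100 mg per kg, from osmotic pumps, for 5 days. The labels spell PE out as pseudoephedrine, and whether that is the drug the abbreviation stands for was not settled here. The 4 untreated arrays, WT 1 and 2 and S105A 5 and 6, gave the genotype difference without PE. These are titled untreated, although the protocol names saline as the alternative to PE. RNA came from snap-frozen hearts, called ventricle in the tissue field and whole heart in the titles, and each array read 1 animal. A positive difference means that the gene was higher in S105A. With 2 arrays a group, the number of arrays limits the precision of every value.

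GATA4 is a zinc-finger transcription factor that binds GATA sites and acts with partners such as NKX2-5 and TBX5 in heart muscle. It is known for switching on genes of the natriuretic peptides and of the fetal contractile programme under load. The serine replaced here lies in its activation domain and is a target of the ERK kinases downstream of adrenergic receptors, a modification that alanine cannot take.

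Upstream sequence is shown for 3 of the genes described here, because GATA4 binds such sites. Tmem37 was the gene with the smallest p, Ogdhl had the largest difference, and Lcn2 had the largest among the genes whose untreated groups overlapped. Each is the 250 bases before the annotated start, from RefSeq on build GRCm38.p6, read 5′ to 3′ on the gene's strand. Capitals mark a GATA hexamer, searched on both strands as AGATAA or AGATAG or TGATAA or TGATAG, with no other motif searched.
Tmem37 (chr1:120073781-120074030, minus strand): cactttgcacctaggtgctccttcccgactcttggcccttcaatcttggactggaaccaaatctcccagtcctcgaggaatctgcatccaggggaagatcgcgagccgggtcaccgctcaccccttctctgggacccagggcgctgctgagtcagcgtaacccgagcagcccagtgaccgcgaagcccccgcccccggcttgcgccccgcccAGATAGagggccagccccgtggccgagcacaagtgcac
Ogdhl (chr14:32321769-32322018, plus strand): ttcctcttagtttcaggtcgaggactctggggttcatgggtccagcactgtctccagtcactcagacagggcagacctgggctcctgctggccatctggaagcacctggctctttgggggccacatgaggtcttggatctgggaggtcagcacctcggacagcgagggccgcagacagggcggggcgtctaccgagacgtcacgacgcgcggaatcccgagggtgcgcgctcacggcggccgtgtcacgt
Lcn2 (chr2:32387740-32387989, minus strand): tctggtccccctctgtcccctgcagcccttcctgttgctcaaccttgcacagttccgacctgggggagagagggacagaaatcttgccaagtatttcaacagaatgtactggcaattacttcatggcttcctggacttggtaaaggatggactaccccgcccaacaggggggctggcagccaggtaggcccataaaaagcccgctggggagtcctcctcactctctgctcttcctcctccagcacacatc
The single hexamer of these 3 windows was AGATAG in Tmem37, 38 bases before the start. Genes whose 2 S105A PE values both lay above or both below the 2 WT PE values are said here not to overlap, and 80 such genes (0.401% of all) also differed by at least 1.5-fold. Of these, 63 had an upstream window and 18 of the 63 (28.6%) held a hexamer. The share was 25.7% of 15614 measured genes and 26.5% of all 32851 windows, so the share in the differing genes lay close to the background. A match is a description of the letters, not a shown binding site.

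The PE arrays differed within their groups far more than the untreated arrays did. The SD over genes of the difference between 2 arrays of a group was 0.417 log2 units for WT PE and 0.266 for S105A PE, against 0.175 and 0.154 for untreated WT and S105A. Arrays 3 and 4 differed by more than 1 log2 unit in 703 genes and arrays 7 and 8 in 171 genes. Array 3, and to a lesser degree array 7, stood apart in the same gene groups, with lower metabolic and higher matrix levels. A named gene's difference is therefore followed by its value without array 3, or without arrays 3 and 7, where that moved it by more than 1.5 times. Of 38 gene list medians, 28 changed sign without array 3, and the 10 that kept it were those of glucose, GATA4 partner, acute phase, oxidative stress, heat shock and cell cycle genes and of neutrophil, lymphocyte, atrial and erythroid markers. As a check of the tissue, 15 cardiomyocyte markers averaged 12.85 to 13.33 in the 8 arrays, on a log2 scale that ran from 2.63 to 14.45. Myl7, a light chain of atrial muscle, read 5.53 to 6.02, although the 10 atrial markers, Myl7 among them, averaged 7.66 to 7.99.

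No gene passed an adjusted p of 0.05 between the PE groups by limma (0 of 19938, 0%). An unadjusted limma p under 0.05 was reached by 535 genes (2.68%), 249 of them higher (1.25%) and 286 lower (1.43%) in S105A. By sign alone, 46.9% of genes were higher and 53.1% lower. Of all genes, 2095 (10.5%) did not overlap and were higher, and 2601 (13%) did not overlap and were lower. Adding a difference of at least 1.5-fold left 45 higher genes (0.226%) and 35 lower genes (0.176%), 80 together (0.401%). Gm4841 (0.59) and Lrrc3b (0.59) lay just inside that fold, and Slc25a31 (0.58) and Plk2 (-0.58) just outside. The median difference over all genes was -0.01, with the 10th percentile at -0.19 and the 90th at 0.17. In RNA from whole tissue, fewer cells of a type and less RNA per cell cannot be told apart, which holds for every value here.

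Tmem37, which encodes a membrane protein related to calcium channel gamma subunits, had the smallest p. Its log2 levels were 6.46 and 6.47 in the WT PE hearts and 7.47 and 7.55 in the S105A PE hearts. The groups were far apart relative to their spread, with a difference of 1.04 (SE 0.09, 2.06-fold, limma adjusted p = 0.184). The untreated hearts showed the same step, from 6.57 and 6.74 in WT to 7.67 and 7.64 in S105A. Averaged over both conditions, Tmem37 was the 1 gene of 19938 (0.00502%) past the adjusted threshold (1.02, SE 0.06, limma adjusted p = 0.0218), while 994 genes (4.99%) had an unadjusted p under 0.05. That call was lost when array 1, 2, 5, 6, 7 or 8 was left out.

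Next in order on the higher side was Snrpe, a core protein of the spliceosome. It read 8.83 and 9.08 in WT PE and 9.80 and 9.72 in S105A PE, a difference of 0.80 (SE 0.11, limma adjusted p = 0.642). Akr1e1, an aldo-keto reductase, had a smaller but tight difference, with 8.12 and 8.15 in WT PE and 8.66 and 8.65 in S105A PE (0.52, SE 0.07). Crnde, a long non-coding RNA, was at 5.65 and 6.08 against 7.00 and 6.85 (1.06, SE 0.15). Ctse, the aspartic protease cathepsin E, was at 6.12 and 5.80 against 6.94 and 6.70 (0.86, SE 0.13). All 4 were also higher in the untreated S105A hearts without overlap, by 0.85, 0.50, 0.74 and 0.36 in the order given.

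On the lower side the smallest p belonged to 3110040M04Rik, a gene known by its clone name. Levels of 6.82 and 6.97 in WT PE stood against 6.10 and 6.12 in S105A PE, a difference of -0.78 (SE 0.09, limma adjusted p = 0.502), and its other probe set gave -0.84. Entpd4, a nucleotide diphosphatase of the Golgi, had 11.09 and 11.26 against 10.44 and 10.53 (-0.69, SE 0.09). A near-identical copy, Entpd4b, lies beside it in the reference, so which copy the probes read is uncertain. Ocel1, a gene named for its occludin and ELL domain, was at 8.78 and 8.76 against 7.39 and 7.42 (-1.36, SE 0.21). In each of these 3 genes the difference was several times the gap between the arrays of either PE group, although none passed the adjusted threshold.

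Ogdhl had the largest difference of all genes. It encodes a relative of the E1 subunit of the oxoglutarate dehydrogenase complex of the citric acid cycle. Its levels were 8.28 and 9.99 in WT PE and 6.01 and 6.47 in S105A PE (-2.90, SE 0.49, 7.48-fold, limma adjusted p = 0.989). The low value in WT came from array 3, and without that array the difference was -3.76. The untreated hearts had 9.89 and 10.01 in WT and 6.63 and 6.70 in S105A. Every S105A array lay below every WT array.

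Lgr6, a receptor for R-spondins in Wnt signalling, followed the same pattern. WT PE hearts had 7.77 and 8.68 and S105A PE hearts 6.73 and 6.88 (-1.42, SE 0.27), against 8.92 and 8.84 and 6.92 and 6.77 without PE. Ndrg4, a cytoplasmic protein abundant in heart and brain, ran the opposite way, with 9.54 and 8.98 in WT PE and 10.58 and 10.44 in S105A PE (1.25, SE 0.25). Il15, a cytokine of lymphocyte survival, was at 6.49 and 6.16 in WT PE and 7.72 and 8.14 in S105A PE (1.60, SE 0.49). Its untreated WT levels, 7.90 and 6.23, differed from each other by more than its PE groups did internally.

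**Figure D1:**
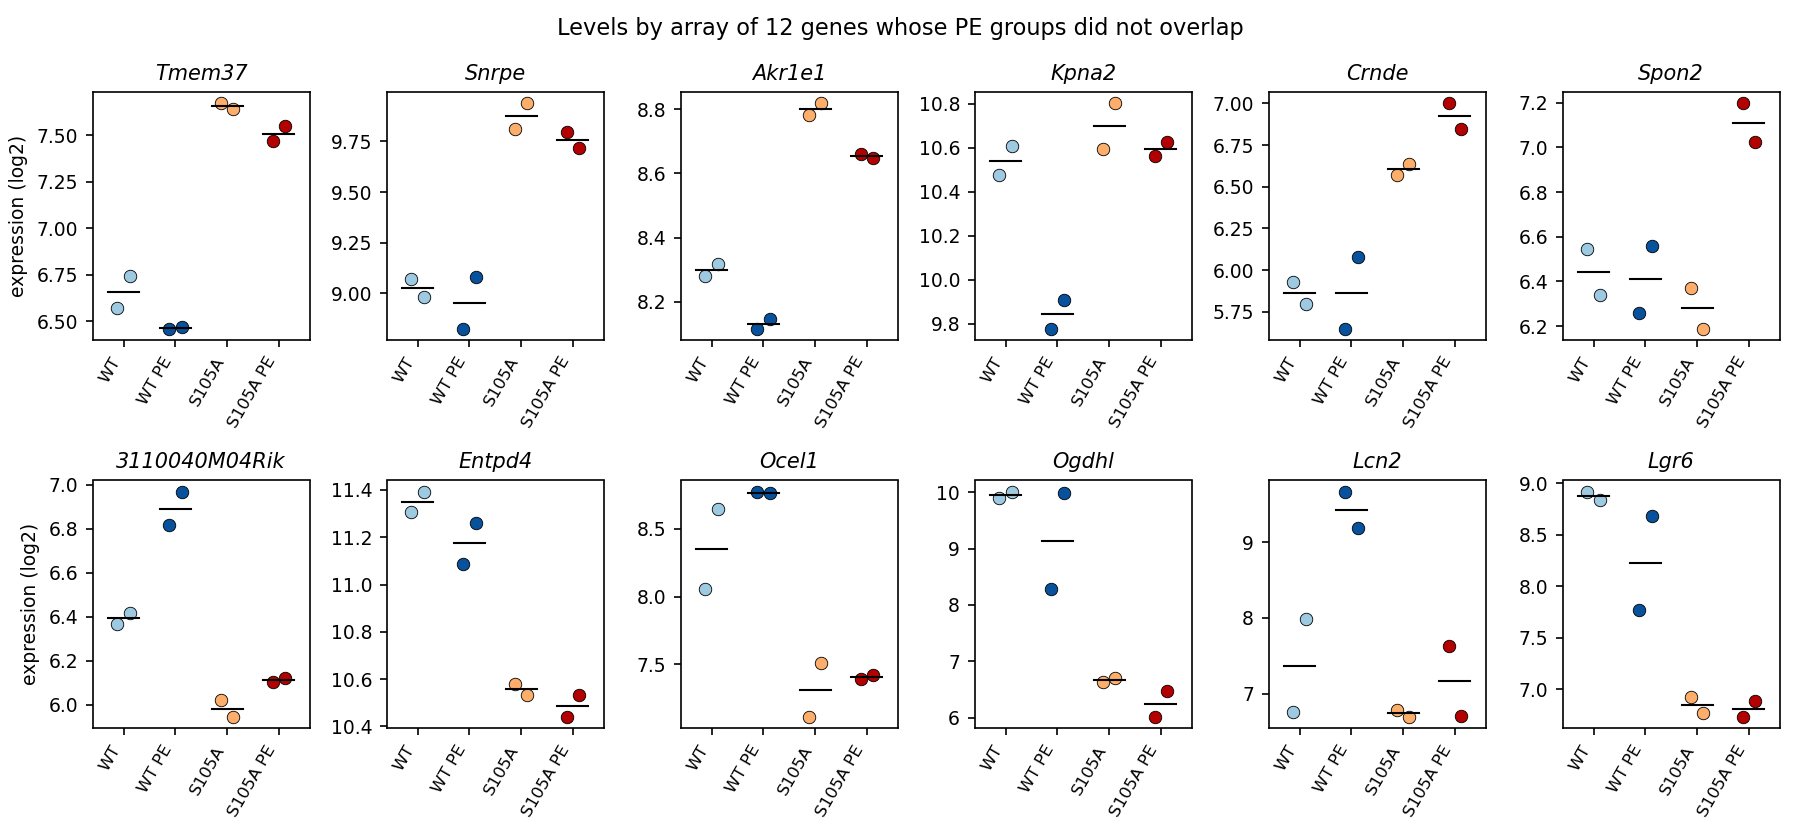
Log2 expression of 12 genes in each of the 8 arrays, with 1 point per array and a line at the group mean; the vertical scale differs between panels. In Tmem37, Snrpe, Akr1e1, Crnde, Entpd4, Ocel1, Ogdhl and Lgr6 both S105A groups lie apart from both WT groups, whereas in Kpna2, Spon2 and Lcn2 the separation is seen in the PE arrays and the untreated groups overlap.

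The untreated arrays share no animal with the PE arrays, so they read the same genotype difference a second time. Of the 80 genes, 64 (80%) had the same sign without PE and 42 (52.5%) also did not overlap there in that direction, while 7 did not overlap in the opposite direction. Without PE, 21.8% of all genes did not overlap on the higher and 22.7% on the lower side, and by limma 0 genes (0%) passed the adjusted threshold and 989 (4.96%) an unadjusted p of 0.05. Among all 4696 genes with no overlap under PE, whatever their size, 57.7% had the same sign and 26.9% the same direction without overlap. The agreement in sign was 32 of 45 for the higher genes and 32 of 35 for the lower genes. The median size of the 80 differences was 0.75 with PE, and the median untreated difference in the same direction was 0.27. Over all genes, the genotype difference with PE and that without PE correlated weakly (Pearson r = 0.25, Spearman rho = 0.179 across 19938 genes, which are not independent replicates).

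A core of 32 genes (0.16%) did not overlap and differed by at least 0.5 log2 units in both conditions in the same direction, 18 higher (0.0903%) and 14 lower (0.0702%). Their sizes under PE ran from 0.51 to 2.90, with a median of 0.74, and the median without PE was 0.72. In 26 of them array 8 differed from array 4 by at least 0.5 in the same direction, a pair that leaves out the 2 arrays that stand apart. The genes were chosen on these same arrays, which fixes the sign of that difference, so the count is not separate support. None of the 32 had an unadjusted interaction p under 0.05 by limma, against 483 of all genes (2.42%), a count that the choice of genes differing in both conditions bears on. Beside those above, the higher genes included Wdfy1, a gene of the endosome (0.77 with PE, 0.99 without), and Pm20d1, an enzyme of N-acyl amino acids (0.71, 0.62). The mitochondrial ribosomal protein gene Gadd45gip1 (0.98, 0.68), the glycosyltransferase gene B3gnt3 (0.82, 0.53) and Irx3, a homeobox factor of the ventricular conduction system (0.70, 0.51; with PE 0.42 without array 3), also belonged to it. Lower in both were the centrosomal gene Cep126 (-0.68, -0.74), the phospholipase gene Ddhd1 (-0.58, -0.54), the zinc-finger gene Zfp131 (-0.51, -0.65), Tmem260 (-0.64, -0.78; with PE -0.22 without arrays 3 and 7) and 4833420G17Rik (-1.22, -0.63). Ptk2b, the calcium-responsive kinase PYK2, was at -1.08 and -0.62, but its WT PE values of 9.10 and 7.80 were themselves far apart, and its PE difference was -0.43 without array 3.

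**Figure D2:**
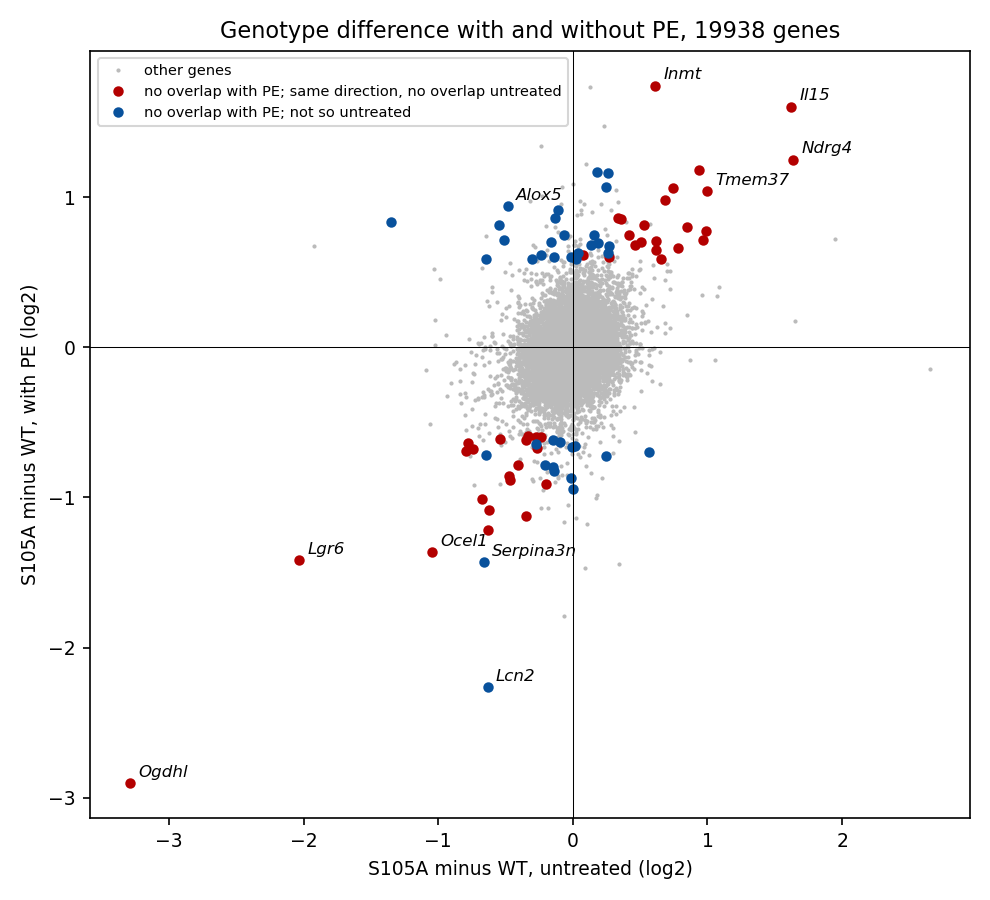
Genotype difference with PE (vertical axis) against that without PE (horizontal axis), both S105A minus WT on the log2 scale, 1 point per gene. Coloured points are the 80 genes with no overlap and at least a 1.5-fold difference with PE; the 42 red points also do not overlap untreated in the same direction, and Ogdhl lies farthest out at -2.90 and -3.29.

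The differing genes were unevenly spread over the chromosomes, a pattern looked for after the values were seen. Chromosomes 1, 8, 13 and 14 held 3507 of the measured genes, and 37 of these (1.06%) did not overlap and differed by 1.5-fold under PE, against 43 of 16431 (0.262%) on all other chromosomes. Of the 32 genes that differed in both conditions, 25 lay on these 4 chromosomes (0.713% of their genes) and 7 elsewhere (0.0426%). Chromosome 8 had the most, with 15 of 955 genes (1.57%), and by share chromosomes 13, 14 and 1 followed, at 0.956%, 0.86% and 0.802%, against 0.401% of all genes. The 4 chromosomes were picked for their counts, so the contrast is a description and has no test.

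Within chromosomes the genes also lay near each other in gene order. Of the 80 genes, 35 (43.8%) had another of the 80 within 30 measured genes on their chromosome, against 18.1% of all genes that had one. For the 32 genes the share was 15 of 32 (46.9%), against 7.21% of all genes. On chromosome 1, the stretch of 107 measured genes from Tmem37 to Lgr6 held 5 of the 80, namely Tmem37, Ctse, Pm20d1, Snrpe and Lgr6. A stretch of 308 measured genes on chromosome 8 held 13, among them Ocel1, B3gnt3, Il15, Gadd45gip1, Irx3, Crnde and Ndrg4, all of which differed in both conditions. Of the stretches described here, that on chromosome 13 had the highest share. Its 13 measured genes held 3 of the 80 (23.1%), among them 4833420G17Rik, against 0.401% of all genes. Each stretch was drawn after the values were seen, with a differing gene at each end. Its share is raised by that choice and has no test. On chromosome 9, Casp4, an inflammatory caspase (-0.86), Mmp3, the protease stromelysin 1 (-1.12), and Cep126 lay within 22 measured genes. Mmp3 was read at 8.08 in WT PE array 4 but at 6.01 in array 3, hardly above the 5.94 and 5.90 of the S105A PE hearts, and its difference was -2.16 without array 3.

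Gata4 itself lies on chromosome 14, and its mRNA did not separate the groups. Its levels were 10.16 and 9.92 in WT PE and 10.02 and 10.09 in S105A PE, a difference of 0.01 (SE 0.11; 0.13 without array 3). A single substitution is not visible to an expression probe set, so this value does not check the genotype labels. Among the 3 measured genes on each side of Gata4, none differed by 1.5-fold without overlap, and 1 did not overlap, Fam167a, at 0.17 (0.11 without array 3). Of the 25 on each side, 12 of 50 (24%) did not overlap and none reached 1.5-fold, against 23.6% without overlap among all genes. Of the 100 genes on each side 3 of 200 did not overlap and reached 1.5-fold, a larger share than the 0.401% of all genes. These 3 included Ptk2b and Entpd4, which lay 34 and 58 measured genes from Gata4 on the same side. Over the whole chromosome 6 of 698 genes (0.86%) did not overlap and reached 1.5-fold, against 0.401% of all genes. The chromosome also held 5 of the genes that differed by at least 0.5 log2 units in both conditions. Of these, Ddhd1 (-0.58 with PE) fell just short of 1.5-fold. Entpd4, Ogdhl, Ddhd1, Tmem260 and Ptk2b are on this chromosome, as are Cideb, a lipid droplet protein gene (-0.41), and Btd, which encodes biotinidase (-0.35).

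**Figure D3:**
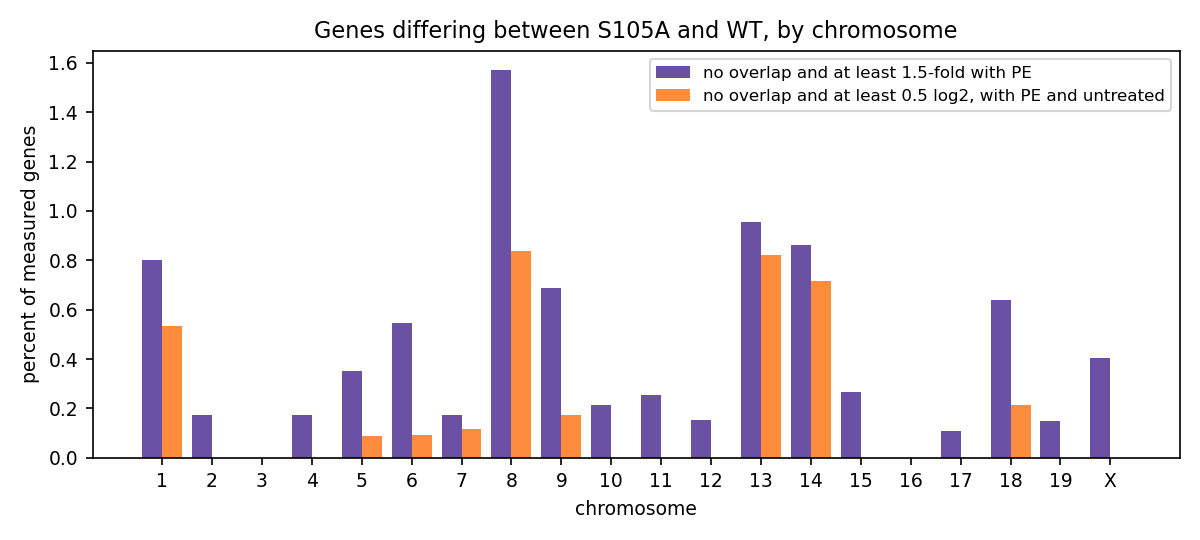
Percent of the measured genes of each chromosome that did not overlap and differed by at least 1.5-fold between S105A and WT with PE (purple), and percent that did not overlap and differed by at least 0.5 log2 units in the same direction with and without PE (orange). Chromosome 8 stands highest for the first measure at 1.57%, and chromosomes 1, 8, 13 and 14 hold most of the second.

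Other genes separated the PE groups with little or no difference without PE. The test of that contrast is the interaction, in which 0 genes passed the adjusted threshold by limma, so none of the following is shown to depend on PE. Kpna2, an importin that carries proteins into the nucleus, was at 9.78 and 9.91 in WT PE and at 10.56 and 10.63 in S105A PE (0.75, SE 0.11). The low values were those of the WT PE hearts, since the untreated levels were 10.48 and 10.61 in WT and 10.59 and 10.80 in S105A, and the limma interaction was 0.60 (SE 0.15, adjusted p = 0.9998). Its 3 probe sets gave differences of 0.73 to 0.76. Pyurf read 7.76 and 7.78 in WT PE and 8.25 and 8.53 in S105A PE, with 8.49 to 8.60 in the 4 untreated hearts, where S105A was higher by 0.075 without overlap. Its difference was 0.62 (SE 0.10), with an interaction of 0.54 (SE 0.15). Spon2, a secreted matrix protein, ran the other way, with high values in the S105A PE hearts alone. It was at 6.26 and 6.56 in WT PE and 7.20 and 7.02 in S105A PE (0.70, SE 0.14; 0.47 without arrays 3 and 7), against 6.19 to 6.55 untreated, an interaction of 0.86 (SE 0.20). The secreted binding protein gene Igfbp5 was also highest in the S105A PE hearts, at 9.61 and 9.35 against 8.84 and 8.92 (0.60, SE 0.12). It also did not overlap in untreated hearts, at 9.10 and 9.22 in S105A against 8.99 and 8.80 in WT (0.27), and its interaction was 0.33 (SE 0.17).

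Some genes changed order between the conditions, S105A lying on one side of WT without PE and on the other with it. Such a change was common. Of the 4696 genes with no overlap under PE, 758 did not overlap untreated in the opposite direction and 1265 in the same direction. The genes below are examples, several of them picked for a small interaction p, which favours a change of order. Rrad, a small GTPase that restrains L-type calcium channels, was at 9.96 and 10.02 in untreated WT and at 10.53 and 10.56 in untreated S105A. With PE it was at 10.81 and 10.86 in WT and at 10.75 and 10.58 in S105A, so the difference went from 0.55 to -0.17, or -0.28 without arrays 3 and 7 (interaction -0.72, SE 0.12, limma adjusted p = 0.9998). Esrp2, a splicing factor, went from 0.36 to -0.22. In the opposite sense, Pi16, a gene of resident fibroblasts, went from -0.57 to 0.31, with 8.20 and 8.38 in WT PE and 8.72 and 8.47 in S105A PE, and its PE difference was 0.090 without arrays 3 and 7. Amacr, a racemase of branched-chain fatty acids, went from -0.20 to 0.49, Tent5c, a poly(A) polymerase, from -0.64 to 0.31, and Frmd4b from -0.27 to 0.21. The erythroid heme enzyme gene Alas2 was at 8.89 and 8.58 in untreated WT and 8.17 and 8.27 in untreated S105A. With PE its levels were 6.52 and 7.11 in WT and 7.45 and 7.63 in S105A (0.72, SE 0.20; 0.42 without array 3). The 5 erythroid markers had a median of 0.15 with PE and -0.21 without, and 4 of 5 were higher with PE.

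Genes of the acute phase and of inflammation lay lower in S105A under PE. Of 28 measured, 23 were lower and 5 higher, and 8 (28.6%) did not overlap on the lower side against 13% of all genes, with 1 on the higher side. The 5 of 28 with an unadjusted p under 0.05 by limma were all lower, against 1.43% of all genes lower at that threshold. Lcn2, a lipocalin that binds bacterial iron carriers, was at 9.66 and 9.19 in WT PE and at 7.62 and 6.71 in S105A PE (-2.26, SE 0.44, 4.80-fold, limma adjusted p = 0.989). Untreated hearts were at 6.76 and 7.99 in WT and 6.79 and 6.69 in S105A, and the interaction was -1.63 (SE 0.63). Both S105A PE hearts thus lay within the range of the untreated hearts, and both WT PE hearts above it. Serpina3n, a serine protease inhibitor of the acute phase, was at 11.55 and 12.07 against 11.12 and 9.64 (-1.43, SE 0.58; -2.43 without arrays 3 and 7). Its family holds close copies, so its probe set may read more than one of them. Il33, an alarmin cytokine, was at 7.30 and 7.48 against 7.02 and 6.16 (-0.80, SE 0.26; -1.32 without arrays 3 and 7). The copper carrier ceruloplasmin, Cp, had small but separate values, 10.48 and 10.54 against 10.12 and 10.16 (-0.37, SE 0.08), and Il6 was near the bottom of the scale at 4.59 and 4.29 against 4.23 and 3.86 (-0.40; -0.24 without array 3). The list median was -0.15, and it stayed negative when any 1 PE array was left out (-0.26 to -0.05) and without arrays 3 and 7 (-0.40). The same list had a median of -0.11 without PE, where WT array 2 had the highest list mean, 7.01 against 6.68 to 6.76 in the other untreated hearts. That array also had the highest mean over 10 neutrophil markers, 6.56 against 5.21 to 5.50 in the other 7, and its part in the untreated median was not tested.

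Myeloid genes lay lower too, by a median that turned without array 3. Of 20 macrophage markers, 19 were lower and none of the 20 was free of overlap on either side. The median of -0.24 became 0.15 without array 3 and -0.13 without arrays 3 and 7. Without PE, where arrays 3 and 7 play no part, 2 of 20 were higher in S105A (median -0.27). The list mean was 9.09 and 8.38 in WT PE, 8.76 and 8.18 in S105A PE and 7.60 to 7.99 untreated, the highest of these in WT array 2, so every PE heart lay above the untreated hearts. Lgals3, the macrophage lectin galectin 3, showed the dependence on 1 array, with 9.73 and 7.80 in WT PE and 8.09 and 7.30 in S105A PE (-1.07; -0.11 without array 3). Ccr2, the chemokine receptor of recruited monocytes, was at 8.52 and 7.27 against 7.41 and 6.80, and the integrin gene Itgam at 8.04 and 7.26 against 7.41 and 6.74. Their differences of -0.79 and -0.58 were -0.17 and -0.19 without array 3. Among single genes, Csf2rb, the shared receptor chain of GM-CSF and related cytokines, did not overlap, at 7.82 and 7.17 against 6.89 and 6.34 (-0.88, SE 0.25; -0.56 without array 3). Alox5, the leukotriene enzyme of white blood cells, lay the other way, at 6.76 and 7.41 in WT PE and 7.63 and 8.42 in S105A PE (0.94, SE 0.29; 0.61 without array 3), and it was lower in untreated S105A by -0.48. Of 10 neutrophil markers, 6 were lower (median -0.09), among them Camp (-0.31) and the receptor gene Csf3r (-0.37; -0.20 without array 3), and 4 were higher, 1 of them without overlap. In untreated hearts 0 of 10 were higher in S105A (median -0.56). The mean over the 10 markers was 5.26 and 6.56 in untreated WT arrays 1 and 2 and 5.35 and 5.28 in untreated S105A. By that mean WT array 1 lay below both S105A hearts, and array 2 alone lay above them.

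Hypertrophy marker genes, several of them known targets of GATA4, did not move together. Nppa, which encodes atrial natriuretic peptide, was at 13.95 and 12.92 in WT PE and 13.76 and 13.08 in S105A PE, a difference of -0.01 (SE 0.40; 0.50 without array 3). Nppb, the B-type peptide gene, had -0.18 (SE 0.35; 0.19 without array 3) and the stretch-responsive gene Ankrd1 0.00 (SE 0.12; -0.066 without array 3), with the groups overlapping in all 3. Myh7, the slow beta myosin heavy chain, did not overlap and was lower in S105A, with 11.33 and 10.89 against 10.71 and 10.48 (-0.52, SE 0.17; -0.29 without array 3; limma adjusted p = 0.989). In untreated hearts it was higher in S105A, at 8.75 and 8.63 against 8.29 and 8.52, and the interaction was -0.80 (SE 0.24). Acta1, skeletal alpha-actin, was at 12.37 and 11.62 in WT PE and at 11.43 and 11.31 in S105A PE (-0.63, SE 0.35; -0.26 without array 3). Myl4, the atrial and fetal essential light chain, lay on the higher side at 8.92 and 8.70 in S105A PE against 8.49 and 8.02 in WT PE (0.56, SE 0.16). Over 15 hypertrophy markers the median was -0.34, with 11 lower, and it was 0.10 without array 3 and -0.13 without arrays 3 and 7. Myh6, the alpha heavy chain, and Atp2a2, the calcium pump of the sarcoplasmic reticulum, had differences of 0.19 (SE 0.15) and 0.17 (SE 0.14), which were -0.033 and -0.046 without array 3.

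Factors that act with GATA4 leaned the other way by small amounts. Of 21 partner and cardiac transcription factor genes, 16 were higher and 5 lower, and 6 (28.6%) did not overlap, all on the higher side, against 10.5% of all genes. Tbx5, a T-box partner, was at 7.87 and 8.80 in WT PE and 8.84 and 8.84 in S105A PE, and its difference of 0.50 (SE 0.27) was 0.04 without array 3. Nkx2-5, the homeobox partner, was at 9.72 and 9.64 against 9.96 and 9.77 (0.19, SE 0.09; 0.13 without arrays 3 and 7). The list median of 0.12 was between 0.06 and 0.15 when 1 PE array was left out, and 0.06 without arrays 3 and 7, while it was -0.08 in untreated hearts. Of 19 reported target genes 11 were higher and 8 lower, with a median of 0.05. Mylk3, the cardiac myosin light chain kinase, was at 10.01 and 11.11 against 11.23 and 11.38 (0.75, SE 0.33), and Edn1, endothelin 1, at 7.82 and 6.95 against 6.90 and 6.58 (-0.65, SE 0.30). Without array 3 these differences were 0.19 and -0.21.

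The ERK kinases that modify GATA4 leave a trace in immediate early and feedback genes, which were split between directions. Of 27 such genes 13 were higher and 14 lower, with a median of -0.01. Dusp1, a phosphatase that switches off MAP kinases, was at 9.56 and 10.05 in WT PE and 10.30 and 10.32 in S105A PE (0.51, SE 0.15; 0.26 without array 3). Atf3, a stress-induced factor, was at 8.13 and 7.84 against 7.64 and 7.35 (-0.49, SE 0.13), and the AP-1 gene Junb had -0.20 (SE 0.08; -0.31 without arrays 3 and 7). Glucocorticoid-responsive genes on the higher side included the clock gene Per1, at 8.31 and 8.67 against 9.19 and 8.99 (0.60, SE 0.20; 0.32 without arrays 3 and 7), and Tsc22d3, at 8.97 and 9.54 against 9.79 and 9.74 (0.51, SE 0.19; 0.23 without array 3). The 22 genes of that list had a median of 0.14, which was -0.11 without array 3.

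**Figure D4:**
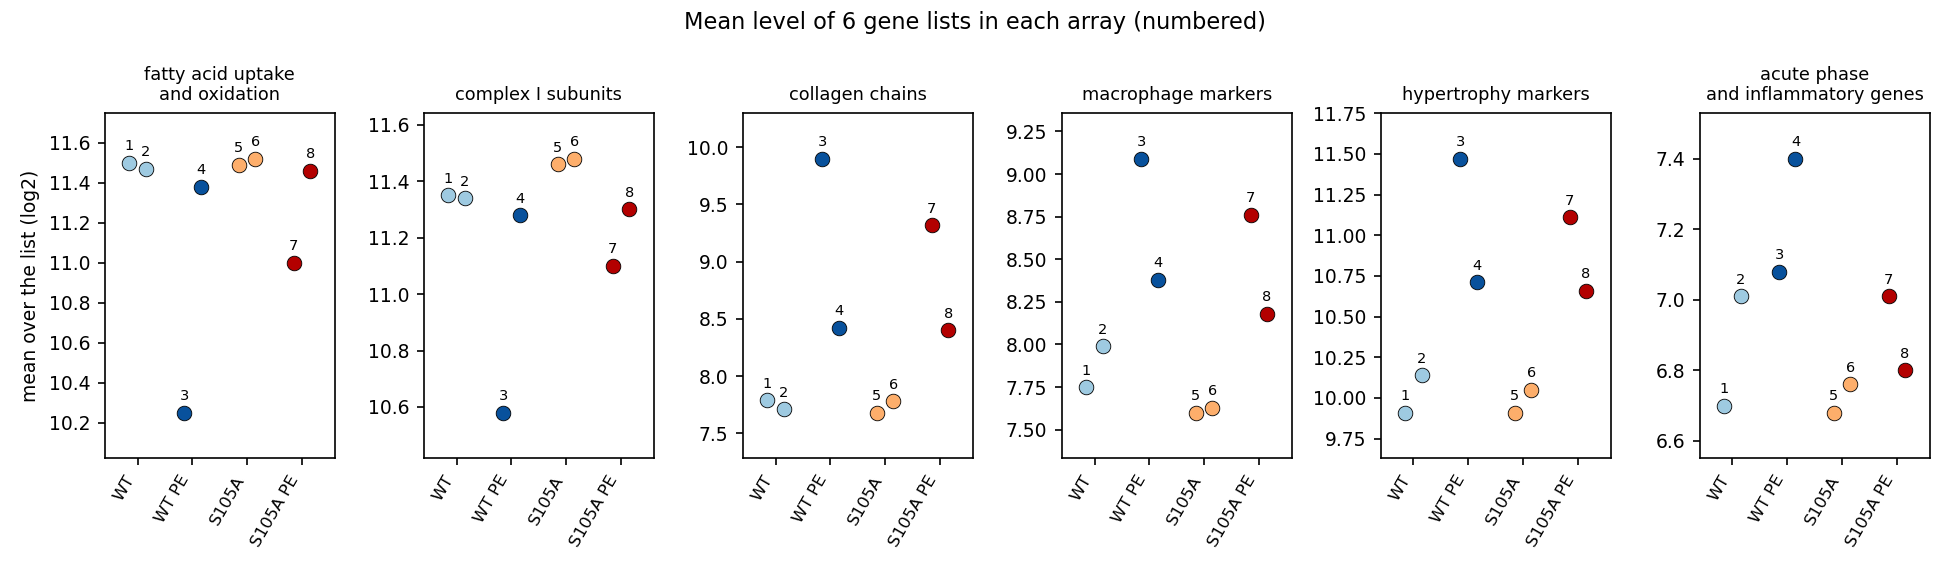
Mean log2 level of 6 gene lists in each array, which is numbered, with groups on the horizontal axis and a vertical scale that differs between panels. Array 3 is the lowest for fatty acid and complex I genes and the highest for collagens, macrophage and hypertrophy markers, with array 7 next, whereas for the acute phase list array 4 is the highest.

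Energy metabolism genes lay higher in S105A under PE by their lists, but the medians turned when array 3 was left out. Of 35 complex I subunits of the respiratory chain 34 were higher (median 0.28), of 37 subunits of complexes II to V all 37 (median 0.24), and of 29 genes of fatty acid uptake and oxidation 28 (median 0.39). Of all genes, 46.9% were higher. Few members were free of overlap, with 0, 2 and 0 on the higher side in the 3 lists, against 10.5% of all genes. The mean of the fatty acid list was 10.25 in WT PE array 3 and 11.38 in array 4, and 11.00 and 11.46 in the S105A PE arrays. Array 4 thus lay between the S105A values and close to the untreated range of 11.47 to 11.52. Without array 3 the 3 medians were -0.09, -0.04 and -0.15, and without arrays 3 and 7 they were 0.00, 0.01 and 0.05. Ndufb10 of complex I (0.49, SE 0.26), Ndufv3 (0.42), Sdhc of complex II (0.40), the acyl-CoA dehydrogenase gene Acads (0.35) and Suclg1 of the citric acid cycle (0.46) were between 0.01 and 0.08 without array 3. Atp5k, a subunit of ATP synthase, was a partial exception, with a difference of 0.66 that was 0.13 without array 3 and an untreated difference of 0.78. Citric acid cycle enzymes had a median of 0.25 with 17 of 19 higher (-0.06 without array 3), Ogdhl being 1 of the 2 that were lower, and mitochondrial ribosomal proteins had 27 of 30 higher (median 0.16), with Mrps27 at 0.45 and Mrpl22 at 0.40. Without array 3 the ribosomal protein median was -0.04, with 10 of 30 higher, and these genes were at 0.17 and 0.16. Regulators of the PPAR, PGC-1 and ERR group were higher in 13 of 15 (median 0.20, -0.11 without array 3).

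Glucose genes did not follow the other metabolic lists. Of 20 genes of glucose transport and glycolysis 11 were higher and 9 lower, with a median of 0.04. Hk2, the muscle hexokinase, was at 9.70 and 10.29 in WT PE and 10.38 and 10.50 in S105A PE (0.45, SE 0.18; 0.15 without array 3). Slc2a1, the basal glucose transporter, was at 10.21 and 9.42 against 9.52 and 9.01 (-0.55, SE 0.27; -0.16 without array 3). The methyltransferase gene Inmt had the largest difference on the higher side among all genes, 1.74 (SE 0.67), but with wide values, 5.20 and 6.97 in WT PE and 7.01 and 8.65 in S105A PE, and was 0.86 without array 3.

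Matrix genes mirrored the metabolic lists. All 19 collagen chain genes were lower in S105A under PE, with a median of -0.32, and 0 of 19 were free of overlap on the lower side, against 13% of all genes. The mean over the collagens was 9.90 and 8.42 in WT PE, 9.32 and 8.40 in S105A PE and 7.68 to 7.79 without PE. Each genotype thus had 1 heart with a high and 1 with a lower collagen mean, and arrays 4 and 8 differed by little. The median was 0.50 without array 3, -0.97 without array 4 and -0.01 without arrays 3 and 7. Col1a1 was at 12.48 and 10.57 in WT PE and 11.75 and 10.47 in S105A PE (-0.41, SE 0.63; 0.54 without array 3). Of 33 matrix glycoproteins and proteoglycans 28 were lower, with a median of -0.18 that was 0.33 without array 3, and 13 of 21 TGF-beta system genes were lower (median -0.11, 0.11 without array 3). Timp1, an inhibitor of matrix proteases, was at 11.55 and 10.71 against 10.96 and 9.15 (-1.07, SE 0.57; -0.65 without array 3), and its difference was between -1.97 and -0.17 when 1 PE array was left out. Postn (0.24, SE 0.59; 1.18 without array 3) and Tnc (0.39, SE 0.64; 1.02 without array 3), matrix proteins of wound repair, overlapped. Cell cycle genes had a median of 0.01, which was 0.30 without array 3 and -0.13 without arrays 3 and 7. Fibroblast markers were split 8 to 8 with a median of -0.01, which was 0.23 without array 3 and -0.26 without array 4.

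**Figure D5:**
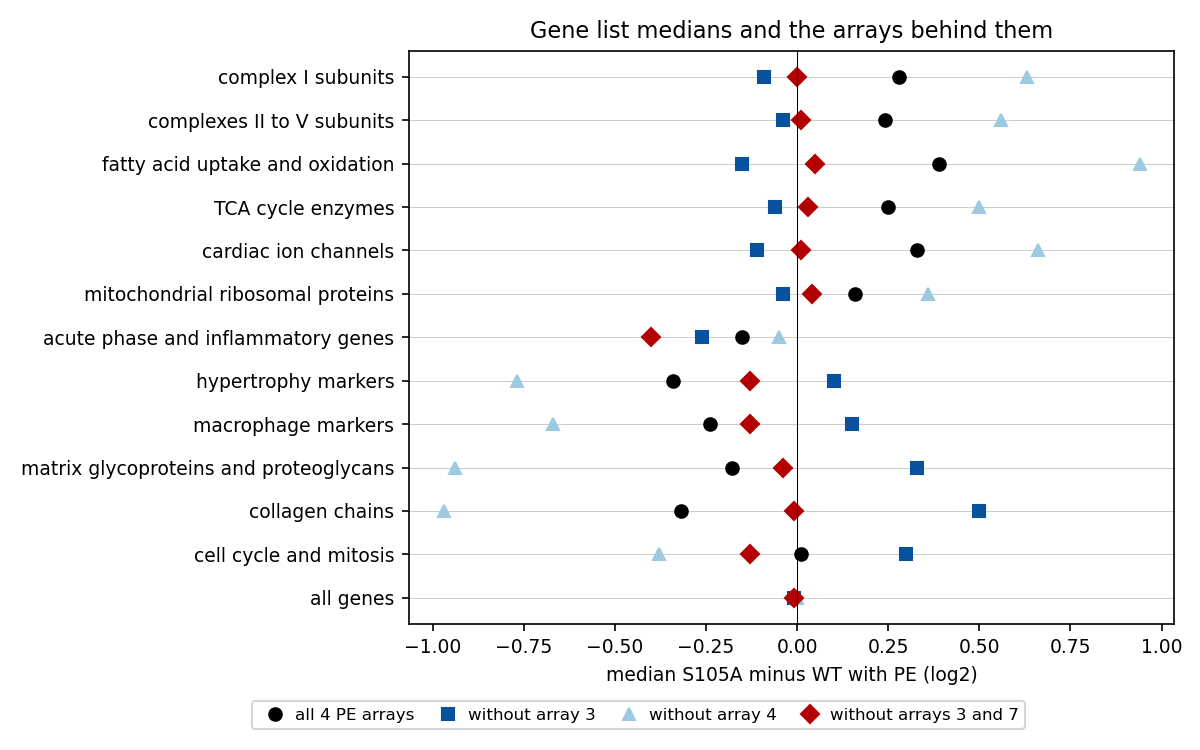
Median difference S105A minus WT with PE over the members of each gene list and over all genes (horizontal axis, log2), with all 4 PE arrays (circles), without array 3 (squares), without array 4 (triangles) and without arrays 3 and 7 (diamonds). Without array 3 the medians of all lists drawn change sign except those of the acute phase and cell cycle lists, and the acute phase median is negative in every setting drawn.

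Genes of membrane excitability leaned higher in S105A. Of 21 cardiac ion channel genes 17 were higher (median 0.33), and 4 (19.0%) did not overlap, all on the higher side, against 10.5% of all genes. In untreated hearts 8 of 21 were higher (median -0.09). The list median depended on array 3 and was -0.11 without it, but the groups did not overlap in the T-type calcium channel genes. Cacna1h was at 6.62 and 6.58 in WT PE and 6.87 and 7.25 in S105A PE (0.46, SE 0.13), and Cacna1g at 7.60 and 7.93 against 8.09 and 8.43 (0.50, SE 0.18). Both were also higher without overlap in untreated S105A hearts, by 0.26 and 0.42. Kcne1, a subunit of the slow delayed rectifier, was at 7.33 and 7.61 against 7.78 and 7.75 (0.30, SE 0.12; 0.16 without array 3). Calcium handling genes had a median of 0.02 and sarcomere genes one of 0.05. Cacnb2, a calcium channel subunit gene of the first of these lists, had a difference of 0.14 with PE against 0.42 without.

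Of 23 interferon response genes 7 (30.4%) were free of overlap on the higher side, against 10.5% of all genes. Their differences were small, with a median of 0.09, a range of -0.09 to 0.41 and a median of -0.13 without PE. The median was -0.12 without arrays 3 and 7. Dysf, the membrane repair protein dysferlin, was at 10.88 and 10.02 in WT PE and 9.75 and 9.33 in S105A PE (-0.91, SE 0.27; -0.48 without array 3). Ephb1, an ephrin receptor gene, had 1.18 (1.74 without arrays 3 and 7) by the probe set used and 0.17 by its other one, so its value is uncertain. Stress and housekeeping lists had medians near 0. These were -0.02 for metallothionein and oxidative stress genes, -0.01 for the unfolded protein response, 0.04 for heat shock proteins and 0.02 for ribosome biogenesis. Of the 23 ribosome biogenesis genes, 5 (21.7%) did not overlap on the lower side, against 13% of all genes, and 2 (8.7%) on the higher side. Clock genes had a median of 0.14, with 13 of 17 higher, and it was -0.07 without array 3. Endothelial markers were higher in 11 of 14 (median 0.13, -0.07 without array 3) against 2 of 14 untreated, cardiomyocyte markers in 12 of 15 (median 0.19, -0.03 without array 3) and atrial markers in 5 of 10 (median 0.04). Markers of mural cells, nerve, fat and mesothelium had medians of 0.02, -0.02, 0.10 and -0.10, and lymphocyte markers one of 0.10, with Gzma at 0.50. The part of these marker lists in the differences above was not tested.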

How the data were processed

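Biotin-labelled heart RNA of 8 mice, 2 per group, was read on Affymetrix arrays, per the labels' protocols. The authors deposited log2 expression values. RMA is the tool named by the submitters' processing notes, and neither the version of it nor a genome build is given in the sources used here. RMA makes the arrays' distributions alike, so a shift shared by most genes would not be seen, and array medians lay between 6.18 and 6.23. Of 35557 rows, 21789 probe sets had 1 gene symbol in the platform annotation, 1621 had several and 12147 had none. Genes were read from the first kind, taking the probe set with the highest mean over the 8 arrays for 999 genes with more than 1, which left 19938 genes. Gene order came from the RefSeq table of GRCm38.p6, where 19855 genes were matched by Entrez identifier.

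Groups were taken from the titles, which number 8 individuals. All 8 arrays entered 1 limma fit with a coefficient for each group (limma version 3.58.1, R version 4.3.3; functions lmFit, contrasts.fit and eBayes). It had 4 residual degrees of freedom, and the prior SD was 0.111 with 2.74 degrees of freedom. Two-sided p values were adjusted over all genes by Benjamini-Hochberg, with a threshold of 0.05. On simulated data with 200 changed genes in the comparison under PE, drawn 5 times over 19938 genes, the fit recovered 75.6% of 2-fold changes and 96.5% of 4-fold changes, with 5.74% and 6.58% of calls false. That simulation gave all groups the same spread and drew genes independently, whereas the PE arrays differed more within groups than the untreated arrays. Its rates therefore do not say what share of 2-fold changes the PE comparison could find. The absence of calls does not show that few such changes exist.

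The comparison, the 38 gene lists (812 entries, 753 measured) and the rules were chosen with earlier results of these data known. Genes were named by rule: up to 12 per direction by p among those with no overlap and at least 0.5 log2, up to 10 per direction by size above the 40th percentile of level, and up to 10 per direction that differed by at least 0.5 log2 in both conditions. The rule added up to 4 per list, up to 5 per direction by interaction p, a fixed set of heart genes and neighbours of Gata4. It named 203 genes, of which the text names 92. The grouping by chromosome, the stretches, the window of 30 genes and the hexamer search were chosen after values were seen. Alternatives were a filter on the 40% lowest genes, the mean of probe sets, all rows, further quantile normalization, median centring, a trended robust prior, array weights, a fit of the arrays compared, an unadjusted p under 0.01 with 1.5-fold, and leaving out each array or arrays 3 and 7. Figures used matplotlib 3.10.9.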

Additional observations from a re-analysis of the deposited data

How the results depend on the processing

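No paired analysis was possible because the individuals are numbered 1 to 8 and no number is shared between groups. With PE, the count of 0 genes past the adjusted threshold held under 8 alternatives of processing. It was 5 without arrays 3 and 7 (Lgr6, Mmp3, Ogdhl, Plac8 and Saa3, all lower), 28 at an unadjusted p under 0.01 with 1.5-fold, and 0 to 711 when 1 array was left out. The 711 arose without array 4, and 4 genes passed without array 3. A group left with 1 array adds nothing to the estimated spread. The 535 genes at an unadjusted p under 0.05 became 285 with the filter on low genes, 1177 over all rows, 233 with array weights, 224 in a fit of the PE arrays alone, 958 without arrays 3 and 7, and 372 to 4115 without 1 array, the highest without array 4. The 80 genes with no overlap and 1.5-fold became 423 over all rows, 158 without arrays 3 and 7, and 80 to 1595 without 1 array (178, 1595, 677 and 129 without arrays 3, 4, 7 and 8), where a lone array makes an overlap less likely. Without PE, the count of 0 (989 at an unadjusted p under 0.05) became 1 with the mean of probe sets, centring or the trended prior, 6 with array weights, 4 in a fit of the untreated arrays alone or without arrays 3 and 7, 39 at an unadjusted p under 0.01 with 1.5-fold, and 0 to 3 without 1 array. For the interaction, the count of 0 became 1 without arrays 3 and 7, 29 at the unadjusted threshold, and 0 to 7 without 1 array. The 1 gene of the averaged genotype effect became 0 over all rows, 6 with array weights, 22 without arrays 3 and 7, 34 at the unadjusted threshold, and 0 to 225 without 1 array (225 without array 4, 14 without array 3). Of the 92 genes named in the text, 9 changed sign under an alternative, all of them fixed heart genes. That count depends on which genes the text names, and many list members that it does not name also changed sign. With all PE arrays 34 of 35 complex I genes were higher in S105A, against 2 without array 3. For the 19 collagen genes the counts were 0 and 19. Leaving out 1 array gave ranges of -0.53 to 0.50 for Nppa, -0.59 to 0.23 for Nppb, -0.11 to 0.13 for Gata4, -0.033 to 0.42 for Myh6, -0.066 to 0.066 for Ankrd1, -0.046 to 0.39 for Atp2a2, -0.71 to 1.18 for Postn, -0.60 to 1.38 for Tnc and -1.37 to 0.54 for Col1a1. Nppa was 0.039 after quantile normalization, 0.0019 after centring and 0.16 without arrays 3 and 7, Ankrd1 was -0.023 after quantile normalization and -0.13 without arrays 3 and 7, and Atp2a2 was -0.0097 there. The cause of these changes was not tested.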
